A study of Mus musculus with 6 samples.

Results

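Sox6, Anxa1, Kcnj6, Ndnf, Calb1, Calb2 and Slc17a6 are genes that tell subtypes of midbrain dopaminergic (DAergic) neurons apart, and they were followed here in the substantia nigra (SN) of MitoPark mice. They were taken by gene symbol from the table of 24054 genes, and all 7 were present and passed the filter on low counts, among 14568 genes tested. RNA of 3 MitoPark mice and 3 littermate controls was compared, at 17 weeks by the study's text and at 16 to 17 weeks by the sample labels, on a C57BL/6 background. MitoParks are Dat+/Cre: TFAM LoxP/LoxP, so that Tfam, the gene of mitochondrial transcription factor A, is deleted in cells that express the dopamine transporter (DAT) and 1 copy of the DAT gene Slc6a3 carries Cre. The controls are described as TFAM+/LoxP: Dat+/+ mice from MitoPark or parental litters, so a floxed Tfam allele is present in both groups. The labels call the tissue brain and the study's methods call it dissected SN, and no mouse was treated.

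DAergic neurons of the midbrain are not 1 population. Those of the ventral tier of the SN express Sox6, a transcription factor, together with the aldehyde dehydrogenase gene Aldh1a1, and a subset of them expresses Anxa1. They are known as the neurons that degenerate early in Parkinson's disease. Neurons of the dorsal tier and of the ventral tegmental area (VTA) more often contain calbindin (Calb1), calretinin (Calb2) or the vesicular glutamate transporter VGLUT2 (Slc17a6), and are known to be more resistant. None of these genes belongs to DAergic neurons alone. In tissue RNA, fewer cells of a type and less RNA per cell cannot be told apart.

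The ventral-tier gene Anxa1 was lower in MitoParks past the study's cutoffs on unadjusted p and fold change, while the other 6 subtype genes did not pass them. The study's supplement lists ANXA1 among its upregulated genes, which is the opposite direction, and the reason for this difference was not tested. Littermate control 3 and MitoPark 1 stood apart from the other mice of their groups in DAergic RNA, at opposite ends, so the fold change without each of them is given for every subtype gene. Th, which encodes tyrosine hydroxylase, the rate-limiting enzyme of dopamine synthesis, was at 55.7, 47.4 and 159.4 CPM in the control group and at 39.0, 57.0 and 65.5 CPM in the MitoPark group. CPM are counts scaled to library size after TMM normalization. Each value is 1 mouse, and the mice of a group are always given in the order 1, 2 and 3. Th in littermate control 3 was 3.09 times the mean of the other controls, and Slc6a3 there was 5.56 times its own mean in the other controls. In MitoPark 1, Slc6a3 was at 0.289 times the mean of MitoParks 2 and 3, and no count was assigned to the DAergic transcription factor gene Pitx3, which had 4 to 38 counts in the other 5 mice. Tfam was lower in each MitoPark (32.7 to 33.2 CPM) than in each control (40.3 to 45.5 CPM). Total expected counts were 8140777 to 10528602 per mouse.

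**Figure D1:**
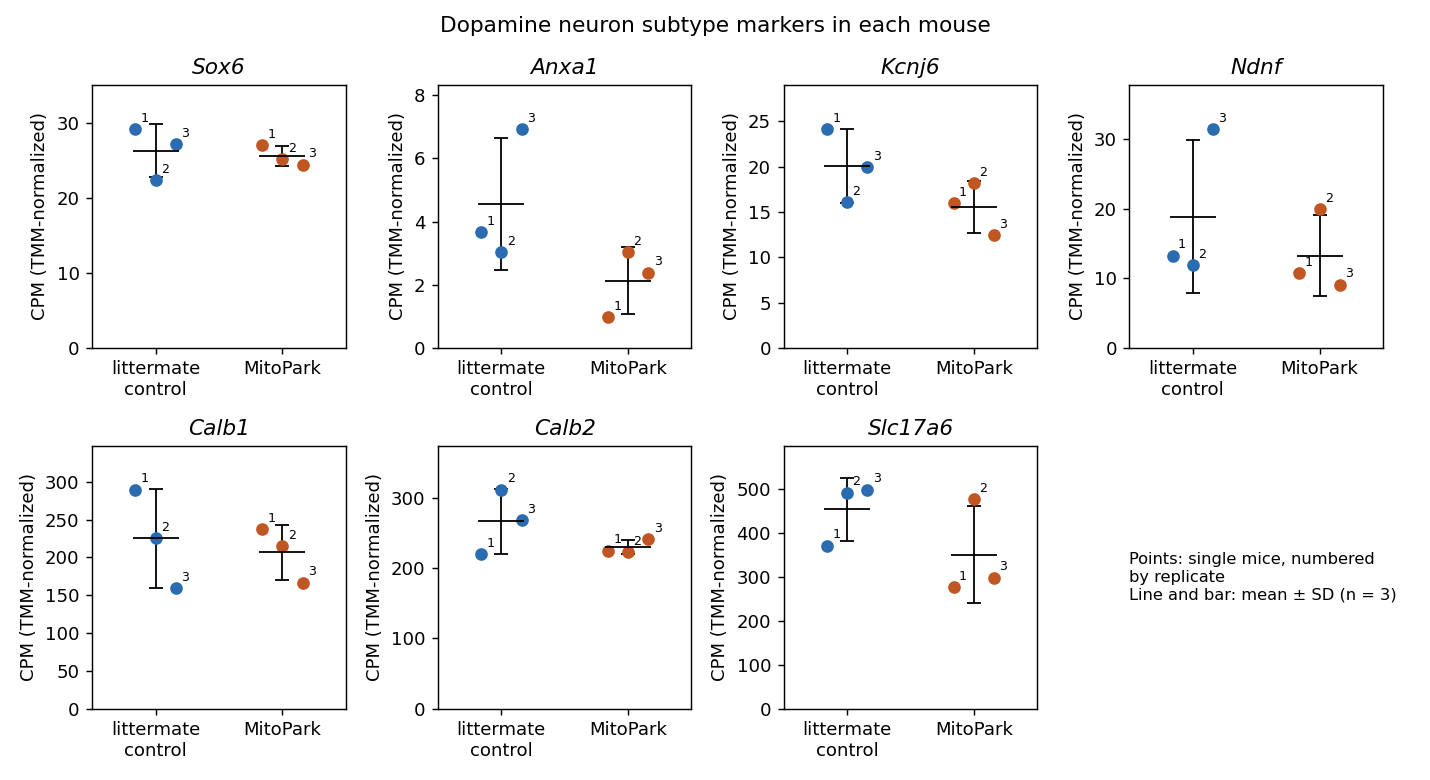
Level of each subtype gene in each mouse, in TMM-normalized CPM (vertical axes from 0, a separate scale for each gene); points are single mice numbered by replicate, with mean and SD (n = 3). Anxa1 is the gene whose groups do not overlap, littermate control 3 is the highest mouse for Anxa1 and Ndnf, and the same mouse is the lowest for Calb1.

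Of the 7 genes, 1 passed both a 1.5-fold change and an edgeR quasi-likelihood p under 0.05 before adjustment, where 0.577% of all genes tested did. These are the cutoffs of the study for a differentially expressed gene in the MitoPark libraries. None of the 7, and 0 of 14568 genes (0%), had an adjusted p below 0.05 by edgeR, whereas 161 genes (1.11%) were under 0.05 before adjustment. DESeq2's Wald test likewise gave 0 genes after and 96 before adjustment. The log2 fold change was below 0 for all 7 genes, with a median of -0.36, and 51.4% of all genes tested were below 0, with a median of -0.0047. All 7 pan-neuronal genes of a list used for comparison were below 0 too, with a median of -0.11. With 3 mice in each group, the exact two-sided permutation test cannot give a p below 0.1.

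**Figure D2:**
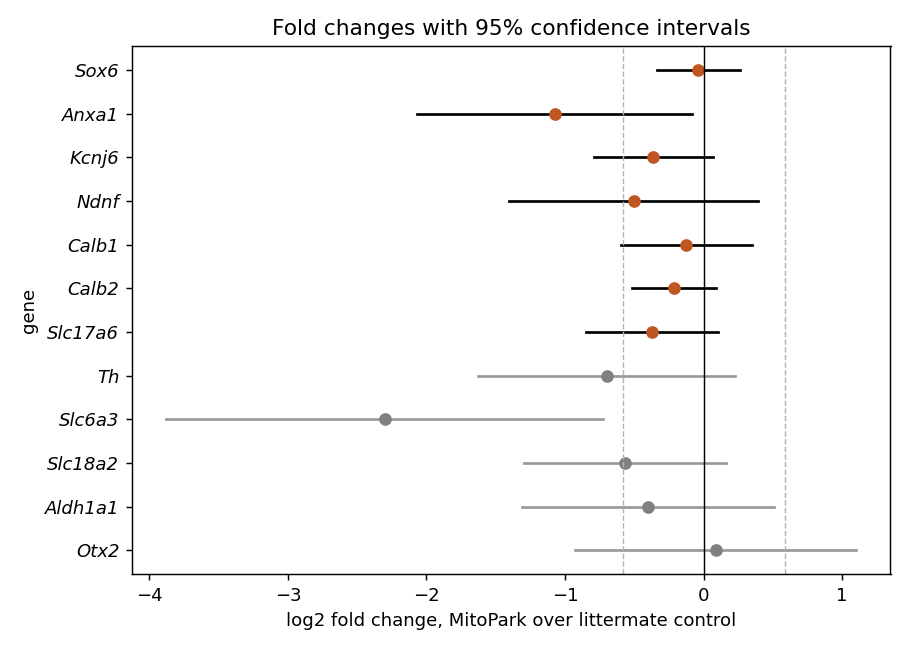
Log2 fold change of MitoPark over littermate control (horizontal axis) for the 7 subtype genes (orange) and 5 reference genes (gray). Horizontal lines are 95% confidence intervals derived from edgeR's quasi-likelihood F test, and dashed lines mark a 1.5-fold change. The intervals of Anxa1 and Slc6a3 lie below 0, and the others include 0.

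Among the ventral-tier genes, Anxa1 encodes annexin A1, a protein that binds membrane phospholipids in a calcium-dependent way. It had 33, 32 and 71 counts in the control group and 8, 30 and 21 counts in the MitoPark group. This corresponds to 3.68, 3.04 and 6.94 CPM in the controls and to 0.975, 3.03 and 2.38 CPM in the MitoParks. All MitoParks were below all controls, but MitoPark 2 and littermate control 2 were almost level. The means were 4.55 ± 2.09 CPM and 2.13 ± 1.05 CPM (SD, n = 3 each), and Anxa1 was 2.11-fold lower in MitoParks. The log2 fold change was -1.07 (SE 0.44, 95% confidence interval -2.07 to -0.082), with an edgeR quasi-likelihood p of 0.0367 (unadjusted; adjusted p = 0.999). Anxa1 stood in place 102 of 14568 genes by p. The exact permutation test gave p = 0.1, and 4.71% of all genes tested had groups that did not overlap.

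The call of Anxa1 rested on single mice. Without littermate control 3 the log2 fold change was -0.63 (unadjusted p = 0.166, edgeR), without MitoPark 1 it was -0.74 (unadjusted p = 0.113, edgeR), and without MitoPark 3 it was -1.15 (unadjusted p = 0.0626, edgeR). In the other 3 fits that left out 1 mouse Anxa1 stayed past the cutoffs. Anxa1 is also expressed by microglia, ependymal and leptomeningeal cells. The summed level of 6 microglia markers was 150.0 to 198.4 CPM in controls and 182.5 to 199.3 CPM in MitoParks, with none of them past the cutoffs. Log2 fold changes were above 0 for 5 of the 6 markers and below 0 for 1, with a median of 0.19. Only Aif1 had groups that did not overlap, at 3.13 to 3.23 CPM in controls and 3.41 to 6.12 CPM in MitoParks. Of the ependymal and leptomeningeal markers, 7 summed to 52.4 to 57.3 CPM in controls and 34.5 to 62.2 CPM in MitoParks. The 34.5 CPM was the sum in MitoPark 1, below every control, and MitoPark 1 was also the lowest mouse for Anxa1. Log2 fold changes were below 0 for 4 of the 7 and above 0 for 3. The ependymal markers Foxj1 (-0.28), Ccdc153 (-0.79) and Tmem212 (-1.40) were among the 4. The sum of 5 endothelial markers was 134.3 to 221.5 CPM in controls and 149.1 to 199.6 CPM in MitoParks. None of these sums separated the groups. The part of these cells in the level of Anxa1 was not tested.

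Ndnf encodes a secreted neurotrophic factor and marks a group of Sox6-expressing neurons of the SN. Its level was 13.3, 11.9 and 31.5 CPM in the control group and 10.7, 19.9 and 9.07 CPM in the MitoPark group. Littermate control 3 was the highest mouse, and MitoPark 2 was above both other controls, so the groups overlapped. Ndnf had a log2 fold change of -0.51 (SE 0.40, 95% confidence interval -1.41 to 0.39), which did not pass the cutoffs (unadjusted p = 0.238, adjusted p = 0.999, edgeR). Without littermate control 3 it turned to 0.084 (unadjusted p = 0.781, edgeR). Without MitoPark 1 it was -0.37, without MitoPark 2 -0.93 and without MitoPark 3 -0.29. The interval covers folds from 0.378 to 1.31, which includes both a fall past 1.5-fold and a small rise.

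Sox6 itself, the gene that defines the ventral tier, varied least over the 6 mice among Sox6, Anxa1, Ndnf and Kcnj6. It was at 29.3, 22.4 and 27.3 CPM in the control group and at 27.1, 25.3 and 24.5 CPM in the MitoPark group. Every MitoPark lay within the range of the controls. The log2 fold change was -0.039 (SE 0.13, 95% confidence interval -0.34 to 0.26), with an unadjusted p of 0.777 (adjusted p = 0.999, edgeR), and the interval leaves out a 1.5-fold change in either direction. Sox6 turned to a log2 fold change of 0.048 when littermate control 1 was left out, and was at -0.012 without littermate control 3 and -0.071 without MitoPark 1. Littermate control 3, with 3.09 times the Th of the other controls, had 1.05 times their Sox6. Sox6 is also a gene of oligodendrocyte precursor cells (OPCs), and 7 OPC markers summed to 334.9 to 485.8 CPM in controls and to 383.2 to 395.0 CPM in MitoParks. The highest of these sums was that of littermate control 3, and 0 of the 7 markers passed the cutoffs. The share of Sox6 reads from OPCs was not tested.

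Kcnj6 encodes GIRK2, a potassium channel opened by G proteins that is abundant in ventral-tier neurons and present in other neurons. It was at 24.2, 16.1 and 19.9 CPM in the control group and at 16.0, 18.2 and 12.5 CPM in the MitoPark group. Littermate control 2 lay among the MitoParks, and the groups overlapped. Kcnj6 had a log2 fold change of -0.36 (SE 0.19, 95% confidence interval -0.79 to 0.069; unadjusted p = 0.0899, adjusted p = 0.999, edgeR). Leaving out 1 mouse gave values between -0.50 and -0.21, all below 0, with -0.37 both without littermate control 3 and without MitoPark 1. The value nearest 0 was that without littermate control 1. Of the channel's relatives, Kcnj9 (GIRK3) was at 66.5 to 68.8 CPM in controls and at 54.7 to 66.1 CPM in MitoParks, with a log2 fold change of -0.19 (unadjusted p = 0.12, edgeR), and Kcnj3 (GIRK1) and Kcnj5 (GIRK4) had log2 fold changes of -0.18 and -0.0071.

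Of the genes for the more resistant neurons, Calb1 encodes calbindin, a calcium buffer. It was at 289.8, 225.8 and 159.5 CPM in the control group and at 237.7, 215.2 and 166.6 CPM in the MitoPark group. The controls spanned all 3 MitoParks. Littermate control 3, the mouse with the most Th, had the least Calb1, at 0.619 times the mean of the other controls. The log2 fold change of Calb1 was -0.12 (SE 0.21, 95% confidence interval -0.60 to 0.35; unadjusted p = 0.57, adjusted p = 0.999, edgeR). Without littermate control 1 it was 0.104, and without MitoPark 3 it was 0.0091. It was -0.32 without littermate control 3 and -0.23 without MitoPark 1. Calbindin is also found in many GABA neurons, and of 5 GABA neuron markers none passed the cutoffs. Log2 fold changes were above 0 for all 5, with a median of 0.19. Their sums were 1216 to 1504 CPM in controls and 1306 to 1573 CPM in MitoParks.

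Calb2 encodes calretinin, which like calbindin binds calcium. Its level was 219.8, 312.4 and 268.3 CPM in the control group and 225.4, 223.5 and 241.2 CPM in the MitoPark group. The MitoParks lay close together within the range of the controls. The log2 fold change was -0.21 (SE 0.14, 95% confidence interval -0.52 to 0.090; unadjusted p = 0.147, adjusted p = 0.999, edgeR), and the interval leaves out a fall past 1.5-fold. It was -0.21 without littermate control 3 and -0.19 without MitoPark 1. In the same family of calcium-binding proteins, Scgn (secretagogin) was at 2.90, 2.38 and 0.0977 CPM in the controls and at 3.41, 1.62 and 1.81 CPM in the MitoParks. The lowest value, in littermate control 3, rests on 1 count.

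Slc17a6 encodes VGLUT2, which loads glutamate into synaptic vesicles. It was at 371.5, 492.6 and 499.6 CPM in the control group and at 276.5, 477.4 and 298.6 CPM in the MitoPark group. MitoParks 1 and 3 were below every control, while MitoPark 2 was within their range. Slc17a6 had a log2 fold change of -0.37 (SE 0.21, 95% confidence interval -0.85 to 0.10; unadjusted p = 0.111, adjusted p = 0.999, edgeR). Of the 15 alternative fits, it passed the cutoffs only in the one without MitoPark 2, at -0.65 (unadjusted p = 0.00319, adjusted p = 0.963, edgeR). It was -0.30 without littermate control 3 and -0.22 without MitoPark 1. VGLUT2 is the main vesicular transporter of glutamate neurons of the thalamus, subthalamic nucleus and red nucleus, which lie near the SN. The 7 markers fixed for these regions all had log2 fold changes below 0 (median -0.48), none past the cutoffs, and their sum was 126.4 to 239.9 CPM in controls and 83.0 to 176.7 CPM in MitoParks. Without littermate control 3 the median was -0.039 and without MitoPark 1 it was -0.21. Without littermate control 1, 2 of the 7 passed the cutoffs, and without littermate control 2, 1 did. Their part in the level of Slc17a6 was not tested.

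**Figure D3:**
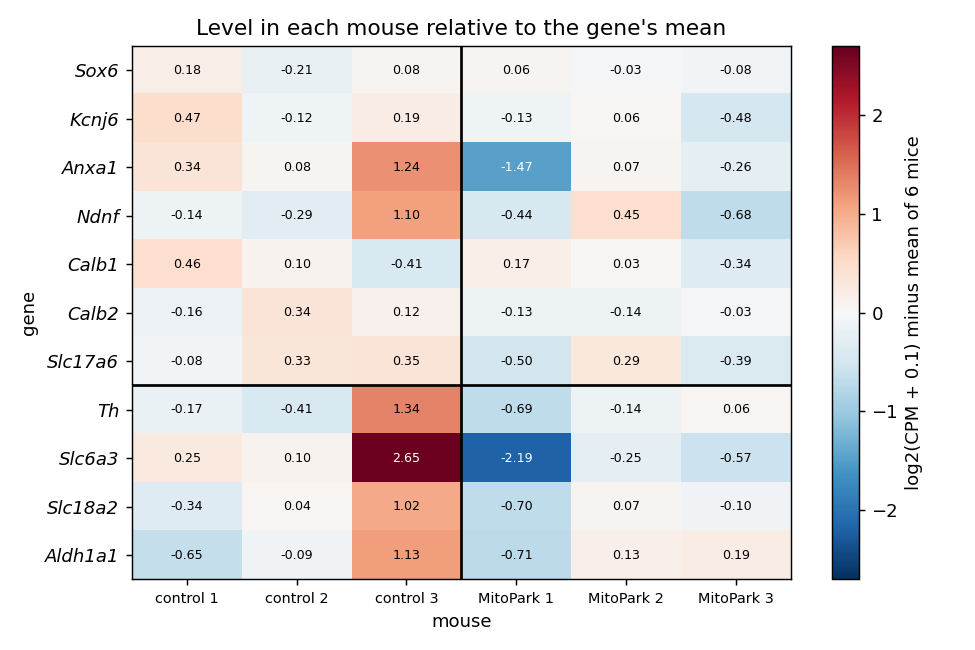
Log2(CPM + 0.1) of each gene in each mouse minus the gene's mean over the 6 mice (colors and printed values; red is above the mean, blue below), for the subtype genes (above the line) and 4 DAergic reference genes (below it). Anxa1 and Ndnf share the high value of littermate control 3 with Th (1.24, 1.10 and 1.34), whereas Calb1 is below its mean there (-0.41).

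By place among all genes tested, Th was near in profile to Anxa1 and Ndnf and far from the other 5 subtype genes. The likeness of profiles was measured as the root mean square difference between mean-centred log2(CPM + 0.1) values over the 6 mice, where 0 would be the same profile. This measure takes in the size of the swings as well as their order, so a gene that varies little lies far from one that varies much. Among the 14567 other genes tested, Ret, the receptor gene for the neurotrophic factor GDNF, was the gene in place 2 by likeness to Anxa1 (0.29), after AI661453 (0.27) and before Hsbp1l1 (0.34). Th stood in place 26 and Slc18a2, the vesicular monoamine transporter gene, in place 20. For Ndnf, Slc18a2 was in place 37 and Th in place 193, and the nearest genes were Pmaip1 (0.17), Exph5 (0.20) and Cenpw (0.22). Th stood in place 14010 for Sox6, 13650 for Kcnj6, 14312 for Calb1, 13971 for Calb2 and 12761 for Slc17a6. The distances to Th differed less than the places: 0.46 for Anxa1, 0.41 for Ndnf, 0.57 for Slc17a6, 0.63 for Sox6 and Calb2, 0.64 for Kcnj6 and 0.88 for Calb1. Slc18a2 was nearer to Slc17a6 (0.36, place 5494) than to Anxa1 (0.44). A place also depends on how far a member lies from genes in general, with a median of 0.83 for Anxa1 and 0.39 for Slc17a6. Slc6a3, which varied more than Th, stood in place 805 for Anxa1, in place 14135 for Ndnf and in places 14457 to 14508 for the other 5 genes. The distances rest on 6 mice, of which littermate control 3 was the highest for Anxa1, Ndnf and Th, and they are a description.

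The nearest genes to the other members were Scfd2, Ubap2 and AU040320 for Sox6 (0.020 to 0.032), Zc3h12b, Pigg and Prkch for Kcnj6 (0.072 to 0.093), and Uhrf2, Rnd3 and Cmtm4 for Calb1 (0.063 to 0.072). Calb2 was nearest to Hdgf, Hpca and Ccdc101 (0.044 to 0.062). Slc17a6 was nearest to Klhl1, Cntn4 and Rgs6 (0.061 to 0.087). None of these is a DAergic gene of the lists used here. Among the subtype genes themselves, the closest pair was Sox6 and Kcnj6 (0.23) and the farthest was Anxa1 and Calb1 (0.95). Over the 6 mice the SD of log2(CPM + 0.1) was 0.88 for Anxa1 and 0.66 for Ndnf, against 0.14 for Sox6 and 0.20 for Calb2, with a median of 0.19 over all genes tested.

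The difference of Anxa1 between the groups changed with the DAergic gene it was set against in the same mouse. The difference of log2(CPM + 0.1) between Anxa1 and Th was -3.89, -3.92 and -4.50 in the control group and -5.18, -4.19 and -4.73 in the MitoPark group. MitoPark 2 lay among the controls on this scale, and the mean was lower by 0.60 in MitoParks. Against the mean of 15 pan-DAergic genes, the values were -2.39, -2.69 and -2.87 in controls and -3.19, -2.83 and -3.06 in MitoParks, which overlapped as well. Against Slc6a3 the values were -4.27, -4.38 and -5.77 in controls and -3.64, -4.03 and -4.05 in MitoParks, so that Anxa1 was higher in every MitoPark, with a mean higher by 0.90. Sox6, Ndnf and Calb1 were also higher against Slc6a3 in every MitoPark than in every control, and Kcnj6, Calb2 and Slc17a6 overlapped. Of all genes tested, 83.8% were higher in this way, and Slc6a3 itself was lower in every MitoPark than in every control. Slc6a3 is also the gene that carries Cre in MitoParks and not in controls, so it differs by genotype as a reference. Ndnf relative to Th was -2.06, -1.99 and -2.34 in controls, so that the high value of littermate control 3 was no longer apart, and -1.85, -1.51 and -2.84 in MitoParks. Sox6 relative to Th was -0.92, -1.08 and -2.54 in controls and -0.53, -1.17 and -1.42 in MitoParks, lowest in the control with the most Th. These differences were not tested.

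The balance of ventral-tier to dorsal-tier genes was followed as the ratio of their CPM within each mouse. Sox6 per 100 Calb1 was 10.1, 9.93 and 17.1 in the control group and 11.4, 11.7 and 14.7 in the MitoPark group. Anxa1 per 100 Calb1 was 1.27, 1.35 and 4.35 in the controls and 0.410, 1.41 and 1.43 in the MitoParks. For both ratios littermate control 3 was the highest mouse, and MitoParks 2 and 3 were above littermate controls 1 and 2. Anxa1 per 100 Calb2 was 1.67, 0.973 and 2.59 in the controls and 0.433, 1.36 and 0.987 in the MitoParks. Anxa1 per 100 Slc17a6 was 0.989, 0.617 and 1.39 in the controls and 0.353, 0.635 and 0.797 in the MitoParks. With these denominators MitoParks 2 and 3 were above littermate control 2 but below littermate control 1. The groups overlapped in 12 of 12 ratios of a ventral-tier gene to a dorsal-tier or VTA gene.

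Levels of different genes were compared as CPM per kilobase of the longest annotated transcript. In littermate controls the order was Calb2 (186.5 ± 32.4), Slc17a6 (109.9 ± 17.4), Calb1 (53.3 ± 15.4), Kcnj6 (5.53 ± 1.12), Sox6 (3.04 ± 0.408), Anxa1 (2.72 ± 1.25) and Ndnf (1.87 ± 1.08) (SD, n = 3). Aldh1a1, a ventral-tier gene outside the 7, was at 89.3 ± 58.4, with a mean between those of Slc17a6 and Calb1. Each of the first 4 was apart from its neighbors in every control, whereas Sox6, Anxa1 and Ndnf overlapped. In MitoParks the first 5 places were the same, and Ndnf (1.31 ± 0.578) and Anxa1 (1.27 ± 0.628) overlapped below Sox6 (2.95 ± 0.152). Th was at 44.9 ± 32.0 and 27.6 ± 6.95 CPM per kilobase in controls and MitoParks (SD, n = 3 each).

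Other genes of the subtypes were taken from lists chosen for their known expression. For the ventral tier these were Aldh1a1, Lmo3, Satb1 and Vcan, of which 0 of 4 passed the cutoffs, with 3 below 0 and a median log2 fold change of -0.18. Aldh1a1 was at 107.1, 157.6 and 366.9 CPM in the control group and at 102.3, 183.5 and 191.4 CPM in the MitoPark group, so that MitoParks 2 and 3 were above littermate controls 1 and 2. Its log2 fold change was -0.40 (SE 0.40; unadjusted p = 0.342, edgeR). Without littermate control 3 the median of the 4 genes was 0.044, and without MitoPark 1 it was -0.079.

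For the dorsal tier and VTA, the list held Otx2, Vip, Cck, Lpl, Grp, Neurod6 and Adcyap1, of which 0 of 7 passed the cutoffs, with 4 below 0 and a median log2 fold change of -0.16. Without MitoPark 1 the median turned to 0.12, without littermate control 2 it was -0.069, without littermate control 3 -0.28 and without MitoPark 2 -0.37. Without littermate control 1, 2 of the 7 passed the cutoffs. Cck, the gene of the peptide cholecystokinin, and Adcyap1, the gene of the peptide PACAP, had an unadjusted p below 0.05 with folds under 1.5. Cck was at 17.8, 27.1 and 28.6 CPM in the control group and at 18.3, 16.2 and 19.5 CPM in the MitoPark group (log2 fold change -0.45, SE 0.18, unadjusted p = 0.0368, adjusted p = 0.999, edgeR). Adcyap1 was at 123.8, 186.2 and 156.0 CPM in the controls and at 99.5, 135.5 and 118.4 CPM in the MitoParks (log2 fold change -0.40, SE 0.17, unadjusted p = 0.0382, adjusted p = 0.999, edgeR). In both genes littermate control 1 was the lowest control and lay among the MitoParks. Otx2, a transcription factor gene of VTA neurons, was at 2.45, 7.79 and 7.13 CPM in controls and at 3.05, 8.59 and 6.80 CPM in MitoParks (log2 fold change 0.086, unadjusted p = 0.853, edgeR).

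The 15 pan-DAergic genes all had log2 fold changes below 0, with a median of -0.67, and 2 of them passed the cutoffs. These were Slc6a3 (log2 fold change -2.30, SE 0.70, unadjusted p = 0.00895, edgeR) and the transcription factor gene Foxa1 (log2 fold change -0.84, SE 0.37, unadjusted p = 0.0488, edgeR). By the genotypes, 1 copy of Slc6a3 carries Cre in MitoParks and none does in controls. The part of that copy in the lower Slc6a3 cannot be told apart in this design. Slc18a2 was at 93.7, 122.6 and 242.0 CPM in the control group and at 73.4, 124.9 and 110.9 CPM in the MitoPark group (log2 fold change -0.57, unadjusted p = 0.112, edgeR). Without littermate control 3 the median of the 15 genes was -0.076 and 1 gene passed the cutoffs, and 1 passed without MitoPark 1 or MitoPark 3. Without littermate control 1 or littermate control 2, 7 of the 15 passed. Robust estimation of the dispersion left 0 past the cutoffs, and leaving out the filter on low counts gave 6. Among the 11 relatives of the subtype genes, which included Sox5, Anxa2, Pvalb and Slc17a7, 7 were above 0 and 4 below, and 0 passed the cutoffs (median 0.065), or 1 without littermate control 3 or MitoPark 2. Of 7 pan-neuronal genes 0 passed the cutoffs, with all 7 below 0 and a median of -0.11. Their sum was 4979.7 to 6108.5 CPM in controls and 4550.3 to 5709.5 CPM in MitoParks. The 6 striatal projection neuron markers had a median of 0.17 and the 5 tested of 6 cortical and hippocampal markers a median of 0.00021, again with 0 past the cutoffs.

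**Figure D4:**
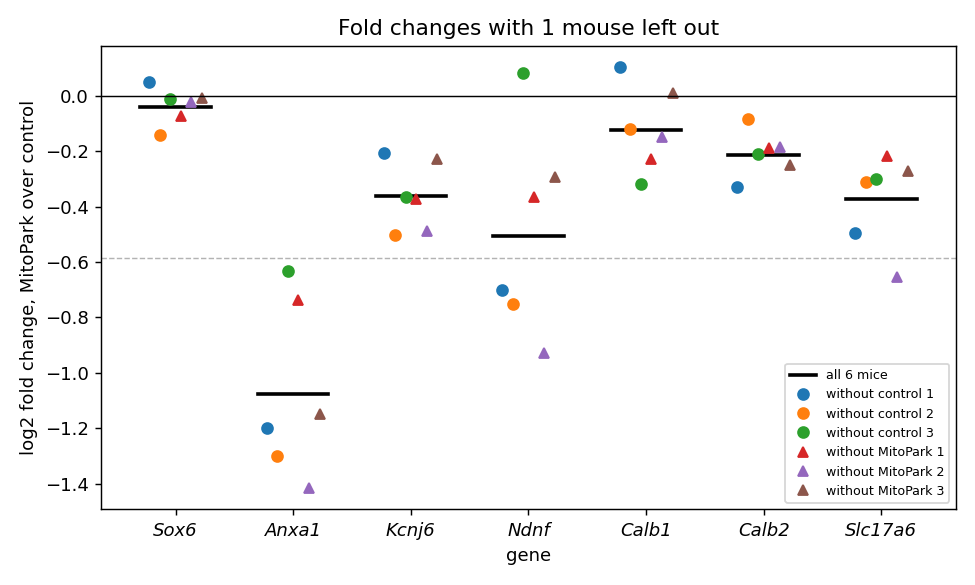
Log2 fold change of MitoPark over littermate control for each subtype gene with all 6 mice (black line) and in fits without 1 mouse each (circles, a control left out; triangles, a MitoPark left out); the dashed line marks a 1.5-fold decrease. Anxa1 ranges from -1.42 to -0.63, and Ndnf from -0.93 to 0.084, with the value above 0 in the fit without littermate control 3.

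RefSeq promoters were found for 4 of the 7 genes, Sox6, Anxa1, Kcnj6 and Slc17a6, and also for Th. The 250 bases before the annotated starts are shown for Anxa1, the gene past the cutoffs, and for Th, the DAergic gene it was set against. The third is that of a Sox6 start which holds a word recognized by Nr4a2 (NURR1), a transcription factor that DAergic neurons require. The words searched on both strands were AAAGGTCA (Nr4a2), TAATCC (Pitx3 and Otx2) and TGTTTAC (Foxa), none of which contains another, and matches are in capitals. All are from build GRCm38.p6 on the minus strand, 5′ to 3′, at chr19:20390672-20390921 for Anxa1, chr7:142899996-142900245 for Th and chr7:116031048-116031297 for Sox6.
Anxa1: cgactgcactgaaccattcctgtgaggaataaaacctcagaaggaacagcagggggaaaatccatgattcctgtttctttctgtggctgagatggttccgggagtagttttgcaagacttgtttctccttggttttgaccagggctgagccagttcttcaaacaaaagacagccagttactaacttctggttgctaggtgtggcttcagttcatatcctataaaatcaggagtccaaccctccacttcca
Th: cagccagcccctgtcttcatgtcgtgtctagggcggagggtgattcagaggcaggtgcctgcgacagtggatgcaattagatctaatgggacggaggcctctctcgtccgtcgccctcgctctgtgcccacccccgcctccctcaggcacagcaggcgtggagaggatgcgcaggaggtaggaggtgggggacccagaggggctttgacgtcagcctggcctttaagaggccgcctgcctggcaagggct
Sox6: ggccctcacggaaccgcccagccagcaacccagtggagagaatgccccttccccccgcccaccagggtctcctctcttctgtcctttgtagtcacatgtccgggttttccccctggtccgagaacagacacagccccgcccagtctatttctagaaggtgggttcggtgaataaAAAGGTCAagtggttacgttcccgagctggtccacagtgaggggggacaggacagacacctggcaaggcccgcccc
The match in the Sox6 window lies 76 to 69 bases before that start. Of 11 windows before the starts of the 4 genes, 2 held any of the 3 words, both of them at Sox6, and the windows of Anxa1 and Th held none. Over 32817 windows of the same length, 1.34% held AAAGGTCA, 6.25% held TAATCC and 3.16% held TGTTTAC. A match of letters is a description and shows no binding.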

How the data were processed

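Polyadenylated RNA from the SN was sequenced in libraries that mark the strand. Reads were aligned by the authors to a UCSC transcript set (Bowtie2 2.1.0), and RSEM 1.2.15 gave the deposited expected counts per gene, which were not normalized. The submitters' processing notes list the build hg38, which is human, although the rows are mouse symbols, so no gene coordinates are given except for the RefSeq promoters. Table columns named Treat were taken as the MitoPark mice, since controls and MitoParks are the only groups, and 0 columns lacked a mouse. At the depth of 8140777 to 10528602 expected counts per mouse, 3 counts are 0.285 to 0.366 CPM, which covers counting error only. Which of the mice share a litter is not known, so p-values measure the spread between these mice. The study's methods give equal numbers of males and females per group, but the labels used here do not give the sex of each mouse. Within groups, every pair of mice differed by more than sampling noise (chi-square over its degrees of freedom at least 9.68), and each mouse was 1 replicate.

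Expected counts were rounded. Genes entered the test when the mean CPM of either group exceeded 1. TMM normalization and the quasi-likelihood test came from edgeR 4.0.16 (R 4.3.3), with group as the only term. A gene passed the cutoffs at p under 0.05 before adjustment and a change over 1.5-fold, after the study's methods, and p-values were adjusted over all tested genes by Benjamini-Hochberg. Log2 CPM values used a pseudocount of 0.1. Other settings tried were DESeq2 1.42.0, limma-voom (limma 3.58.1), robust dispersion, RLE or total count scaling, different filters, counts left unrounded, a block for the replicate number, and leaving out single mice. The procedure was tested on simulated data. Lengths came from GENCODE M21.

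The subtype genes and the gene lists were chosen with earlier results of these data known. Named with values are the 7 subtype genes, Th, Slc6a3, Slc18a2, Aldh1a1, Otx2, Tfam, list genes below the p cutoff, and the 3 genes with the profile most like each subtype gene. Pitx3, Scgn, Kcnj3, Kcnj5, Kcnj9, Aif1, Foxj1, Ccdc153 and Tmem212 were named after their values were seen. Drd1 is listed in the table under its older symbol Drd1a.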

Additional observations from a re-analysis of the deposited data

How the results depend on the processing

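With all 6 mice, the 9 other fits kept all 7 subtype genes below 0 and on the same side of the cutoffs, Anxa1 between -1.09 and -1.06 and Ndnf between -0.51 and -0.43 on the log2 scale. Leaving out 1 mouse in turn gave ranges of -1.42 to -0.63 for Anxa1, which stayed past the cutoffs in 3 of 6 fits, -0.93 to 0.084 for Ndnf, -0.32 to 0.104 for Calb1, -0.14 to 0.048 for Sox6, -0.65 to -0.22 for Slc17a6, -0.50 to -0.21 for Kcnj6 and -0.33 to -0.085 for Calb2. The values above 0 were 0.048 for Sox6 and 0.104 for Calb1 without littermate control 1, 0.084 for Ndnf without littermate control 3 and 0.0091 for Calb1 without MitoPark 3. Over all fits the adjusted p of the subtype genes was between 0.963 and 1 (edgeR, DESeq2 and limma). Genes past the cutoffs among all tested numbered 84, 176 without the filter on low counts, where more genes were tested, and 62 to 219 with 1 mouse left out. Of the other cell type lists, which had 0 genes past the cutoffs with all mice, 1 microglia marker passed without MitoPark 1, 1 striatal marker without MitoPark 2, 1 GABA neuron marker without littermate control 3, and of the ependymal and leptomeningeal markers 1 without littermate control 1 and 2 without littermate control 3. The cause of these shifts was not tested. With 8 to 71 counts per mouse, Anxa1 is the member most limited by depth.

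Same-numbered mice deviated together with correlations of 0.307, -0.0738 and 0.244 for replicates 1, 2 and 3, so the numbers were not taken as pairs. The mice numbered 1 deviated most like each other, and so did the mice numbered 3. Littermate control 2 deviated most like MitoPark 1 (0.112) and MitoPark 2 most like littermate control 3 (0.149), so not every mouse was nearest to its own number. A block for the numbers gave 323 genes with an unadjusted p below 0.05, against 161 without it (edgeR). With the replicate block, the log2 fold change was -1.07 for Anxa1 (unadjusted p = 0.0137) and -0.40 for Slc17a6 (unadjusted p = 0.0142, edgeR), no call among the 7 genes changed, 126 genes passed the cutoffs, and 6 of the 15 pan-DAergic genes did. With the block, 1 gene, 1500004A13Rik, had an adjusted p below 0.05 (log2 fold change -4.37, adjusted p = 0.00103, edgeR), against an adjusted p of 0.999 without it.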
